A study of Mus musculus with 12 samples.

Results

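The difference between 2 degradation experiments in mouse cardiac precursors was examined: the change of every gene on auxin in a line with degradable JARID2, minus its change on auxin in a line with degradable SUZ12. The 8 libraries of these 4 groups were used, of 12 in the series, and the members were the 15329 genes, of 35856 rows of the expression table, that reached at least 1 TPM in at least 2 of the 8 libraries. TPM is a read count scaled for transcript length and for the total of its library. Genes were sorted by the change in each line into opposite, one-line and concordant responses. Genes that stood too low in a line to fall as far as in the other were counted separately.

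All cells were derived from C57BL/6 mouse embryonic stem cells (ESCs) and carried Tir1, a plant F-box protein. In the presence of auxin, Tir1 recruits an auxin-inducible degron (AID) tag to the ubiquitin ligase of the cell. The genotypes were SUZ12-AID, Tir1 and AID-JARID2, Tir1, each sequenced as 2 untreated libraries and as 2 libraries from cells exposed to indole-3-acetic acid (auxin) at 50 µM. Cells spent 48 h as embryoid bodies, 43 h as reaggregated bodies with VEGF, Activin A and BMP4, and 32 h as a monolayer, which the study calls the cardiac precursor (CP) stage. The labels give neither the start nor the length of the auxin treatment. Each subunit is represented by 1 tagged line, and no line without a tag was given auxin, so the loss of a subunit, a property of the line and an action of auxin itself cannot be told apart. The series speaks of biological replicates without saying whether these were separate cultures, so the p-values reflect how far these particular libraries scatter, which may be technical.

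Polycomb repressive complex 2 (PRC2) methylates lysine 27 of histone H3, a mark of silenced developmental genes. SUZ12 belongs to the core of the complex and is needed for its stability, so that its loss removes both major forms of PRC2. JARID2 is an accessory subunit of the PRC2.2 form, helps to bring the complex to CpG-rich promoters, and was first known for its part in heart and neural tube development. Many of the genes held by PRC2 in pluripotent cells encode the transcription factors of later lineages, heart factors among them.

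The files implied 11008495 to 17173072 reads assigned to genes per library, as lower limits. Replicates differed by a median of 0.195 log2 units per gene in untreated and 0.143 in auxin-treated SUZ12-AID, against 0.095 and 0.088 in AID-JARID2, so the SUZ12-AID changes are known less precisely. Untreated SUZ12-AID replicate 1 stood apart, with a median of 14.41 TPM over the tested genes where the other 7 libraries had 16.18 to 17.88 TPM. Of 8 defining genes of cardiac precursors, Isl1, Gata4, Hand2, Mef2c, Tnnt2 and Myl7 had at least 6.03 TPM in every untreated library, Nkx2-5 had 1.47 to 2.77 TPM, and Tbx5 had at most 0.299 TPM. Of 5 defining genes of undifferentiated ESCs, Zfp42 and Esrrb stayed under 1.5 TPM in the untreated libraries, whereas Pou5f1 stood at 113 and 90.5 TPM in SUZ12-AID and 335 and 316 TPM in AID-JARID2. The lines thus differed before auxin: of all genes tested, 3470 (22.6%) passed the test between the untreated lines, 1882 of them higher in AID-JARID2 (12.3%) and 1588 lower (10.4%). At least 2-fold, 442 were higher (2.88%) and 483 lower (3.15%).

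The stretches just upstream of the start of 5 genes are shown first, since these genes lead the opposite and the AID-JARID2 classes below and CpG density is the promoter property most closely tied to PRC2 binding. Each is the 250 bases before the start that RefSeq gives on build GRCm38.p6, in the direction of the gene, and capitals mark every CG. In order, the windows lie at chr8:57320733-57320982 (plus strand), chr12:109452573-109452822 (plus), chr8:65037337-65037586 (minus), chr3:88772600-88772849 (minus) and chrX:7928608-7928857 (minus). The RefSeq start of Syt11 lies inside the longer gene span given below from GENCODE, while the other 4 windows end at the start of that span.
Hand2: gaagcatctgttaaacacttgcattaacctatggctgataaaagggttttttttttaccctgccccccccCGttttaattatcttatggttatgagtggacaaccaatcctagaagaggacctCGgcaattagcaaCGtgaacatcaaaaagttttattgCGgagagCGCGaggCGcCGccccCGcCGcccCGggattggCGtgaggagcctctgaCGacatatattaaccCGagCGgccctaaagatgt
Dlk1: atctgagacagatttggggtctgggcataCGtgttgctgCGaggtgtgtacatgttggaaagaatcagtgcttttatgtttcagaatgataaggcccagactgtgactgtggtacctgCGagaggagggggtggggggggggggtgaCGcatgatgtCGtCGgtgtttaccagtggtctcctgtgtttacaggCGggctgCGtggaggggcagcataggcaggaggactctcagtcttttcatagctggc
Apela: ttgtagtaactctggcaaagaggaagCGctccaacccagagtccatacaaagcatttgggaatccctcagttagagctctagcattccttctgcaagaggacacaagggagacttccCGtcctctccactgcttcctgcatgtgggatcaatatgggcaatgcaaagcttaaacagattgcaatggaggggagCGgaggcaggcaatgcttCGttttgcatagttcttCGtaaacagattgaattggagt
Syt11: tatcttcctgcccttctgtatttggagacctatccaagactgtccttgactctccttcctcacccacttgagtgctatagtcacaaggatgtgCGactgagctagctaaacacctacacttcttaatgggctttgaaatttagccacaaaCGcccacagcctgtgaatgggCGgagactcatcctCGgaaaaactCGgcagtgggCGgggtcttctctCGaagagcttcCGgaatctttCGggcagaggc
Eras: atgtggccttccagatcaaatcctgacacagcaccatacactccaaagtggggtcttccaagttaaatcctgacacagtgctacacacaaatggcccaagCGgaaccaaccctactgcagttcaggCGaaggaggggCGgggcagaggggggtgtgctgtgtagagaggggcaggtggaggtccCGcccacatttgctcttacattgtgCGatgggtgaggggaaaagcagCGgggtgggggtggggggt
The window of Hand2 held 15 CG pairs, that of Syt11 9, that of Dlk1 8, that of Eras 6 and that of Apela 5. RefSeq windows were matched for 71.9% of the tested genes, too few to compare CG content between response classes.

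The auxin effect differed between the lines in 3061 of 15329 genes (20.0%) at an adjusted p under 0.05, the threshold used throughout. The effect was higher in AID-JARID2 in 1107 genes (7.22%) and lower in 1954 (12.7%), so 63.8% of the differences were on the lower side. At least 2-fold differences numbered 397 higher (2.59%) and 1059 lower (6.91%). In AID-JARID2 itself 2719 genes rose (17.7%) and 2348 fell (15.3%), and in SUZ12-AID 2002 rose (13.1%) and 437 fell (2.85%). Changes of at least 2-fold numbered 894 up (5.83%) and 635 down (4.14%) in AID-JARID2, and 670 up (4.37%) and 41 down (0.267%) in SUZ12-AID. Lower differences thus came both from falls in AID-JARID2 and from rises in SUZ12-AID. Here and below an effect is auxin minus untreated in log2(TPM + 1), a difference is the effect in AID-JARID2 minus that in SUZ12-AID, and less RNA of a gene per cell cannot be told apart from fewer cells that express it.

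Of the differences of at least 2-fold, 72.7% were lower, and other scalings were not tried with that minimum. Without it, the balance of directions depended on scaling and on 1 library. A fit that leaves out 1 library keeps only 1 in that group, and so has less power, here and below. Lower differences made up 54.5% after median-of-ratios scaling and 50.9% after quantile normalization, with 1504 and 1680 genes higher. Without untreated SUZ12-AID replicate 1 there were 1776 genes higher and 1966 lower (52.5% lower). Counts of higher genes fell to between 519 and 640 when any 1 AID-JARID2 library was left out, and those of lower genes to between 1118 and 1160. Without auxin-treated SUZ12-AID replicate 2 the lower genes numbered 1267, the SUZ12-AID rises 727 and the SUZ12-AID falls 128, whereas the falls numbered 964 without untreated SUZ12-AID replicate 1. The AID-JARID2 rises and falls numbered 1495 to 1661 and 1331 to 1413 when any 1 of its own libraries was left out. With a variance weight per line, which allows for the wider spread of SUZ12-AID, the difference counts were 1059 and 1825, but SUZ12-AID had 994 rises and 179 falls. The median difference over all genes tested was -0.07, with medians of 0.01 in AID-JARID2 and 0.06 in SUZ12-AID. It was 0.037 after quantile normalization and 0.002 after median-of-ratios scaling, where the SUZ12-AID medians were -0.039 and -0.02. Both scalings bring the libraries to a common level, so these small medians follow largely from the scaling. Without untreated SUZ12-AID replicate 1 the median difference was -0.006.

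Across the 15329 genes the effects in the lines, which share no libraries, correlated weakly (Pearson r 0.304, Spearman rho 0.263, a description across genes that are not independent replicates). The effects were also wider in AID-JARID2, with an SD over genes of 0.6652 against 0.4375. In 9014 genes (58.8%) neither line nor the difference passed, in 2472 (16.1%) 1 line passed without the difference, and in 38 higher (0.248%) and 102 lower (0.665%) the difference alone did. Both auxin libraries lay on 1 side of both untreated ones in 73.6% of all genes in AID-JARID2 and in 49.6% in SUZ12-AID. The rule for naming genes required this in each line that passed. Lack of overlap in a gene named by the rule is therefore fixed by that choice and adds no support. Of the 1331 genes that passed in both lines, 1066 (80.1%) moved the same way and 265 moved in opposite ways. Of the 3061 genes whose effect differed, the means of the lines lay further apart with auxin than without it in 2647 and closer together in 414 (13.5%), where 29.7% of all genes tested came closer. The gap with auxin is the untreated gap plus the difference, so choosing genes by that difference largely fixes this contrast in advance. An untreated difference between the lines passed in 39.5% of these 3061 genes, against 22.6% of all genes. These untreated values share libraries with the effects and are set beside them only as levels.

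**Figure D1:**
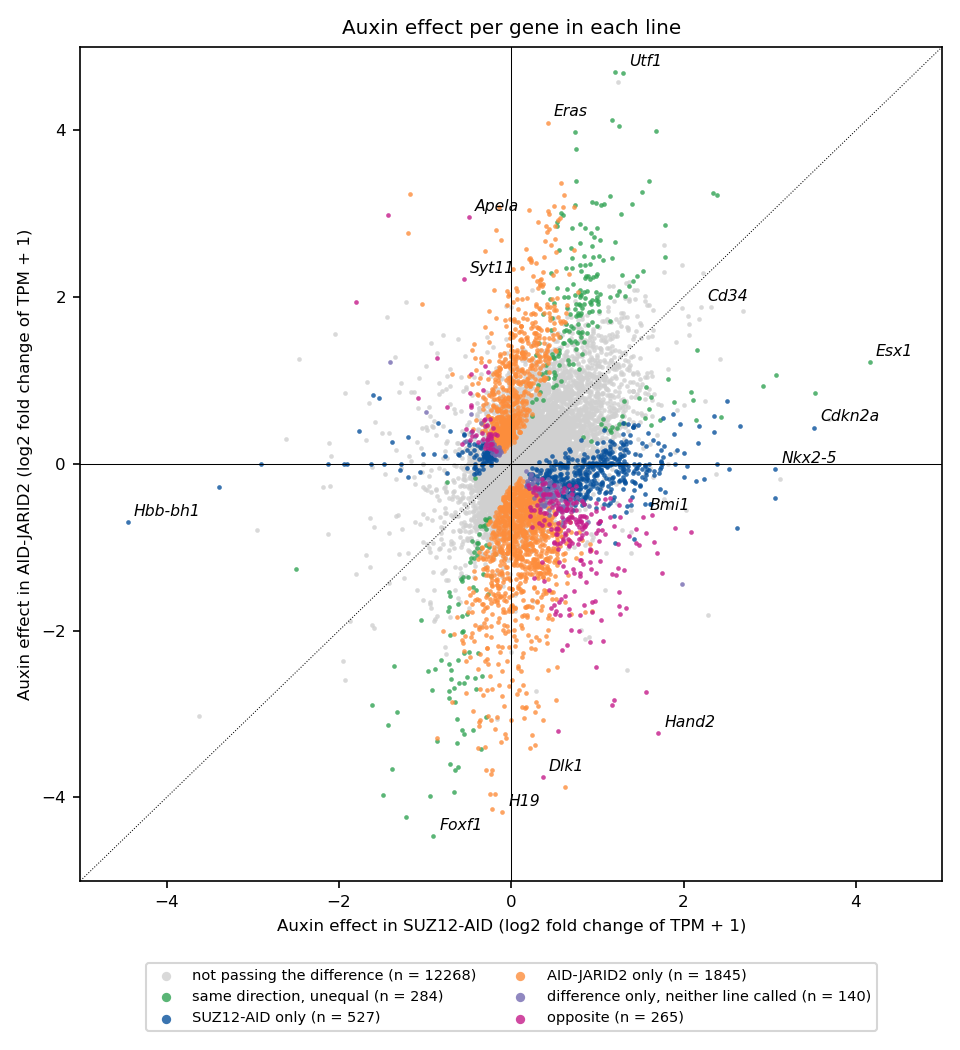
Each point is 1 of 15329 genes, placed by its auxin effect in SUZ12-AID (x axis) and AID-JARID2 (y axis), both as the log2 fold change of TPM + 1 over 2 libraries per group; colours give the response class and the dotted line marks equal effects. The 265 opposite genes fill the upper left and lower right quadrants, with Hand2 farthest out on the lower right, and the AID-JARID2 genes run along the vertical axis.

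Opposite responses were found in 265 genes (1.73% of those tested). In 218 (1.42%) the gene fell in AID-JARID2 and rose in SUZ12-AID, with median effects of -0.74 and 0.68, and in 47 (0.307%) it rose in AID-JARID2 and fell in SUZ12-AID, with median effects of 0.36 and -0.30. The first kind was led by Hand2, a helix-loop-helix factor needed for the heart ventricles and the limbs (chr8:57320983-57324633, plus strand). In SUZ12-AID its level went from 48.3 and 48.2 to 168 and 151 TPM, and in AID-JARID2 it went from 51.6 and 43.5 to 4.53 and 3.83 TPM. The untreated libraries of both lines overlapped, while the auxin libraries lay above them in one line and below them in the other. The difference of -4.93 (SE 0.16, adjusted p = 4.78e-06) was the largest in size among the opposite genes that the naming rule could take.

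Other regulators and signals fell in AID-JARID2 and rose in SUZ12-AID. Dkk1, a secreted WNT inhibitor that favours heart formation, went from 37.4 and 38.2 to 7.12 and 5.37 TPM in AID-JARID2 and from 18.4 and 17.7 to 39.6 and 34.3 TPM in SUZ12-AID, a difference of -3.42 (SE 0.19, adjusted p = 3.94e-05). Untreated AID-JARID2 and auxin-treated SUZ12-AID thus stood at like levels of Dkk1, and the other groups lay below. Gfra3, the receptor subunit for the ligand artemin, went from 4.92 and 6.49 to 0.978 and 0.841 TPM and from 3.04 and 3.26 to 8.49 and 9.47 TPM, a difference of -3.07 (SE 0.24, adjusted p = 0.000145). Six2, a homeobox factor best known from kidney progenitors, went from 20.8 and 20.7 to 11.9 and 10.8 TPM and from 6.16 and 6.45 to 30.7 and 29.2 TPM, a difference of -2.90 (SE 0.15, adjusted p = 2.81e-05), and here the rise in SUZ12-AID was the larger part.

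Genes of muscle and of cell structure were in the same class. Myl4, the atrial and embryonic myosin light chain (chr11:104550663-104595753, plus strand), went from 14.2 and 14.1 to 2.93 and 2.08 TPM in AID-JARID2 and from 25.8 and 19 to 50.5 and 44.4 TPM in SUZ12-AID, a difference of -3.19 (SE 0.25, adjusted p = 0.00015). Gjb2, which encodes connexin 26, went from 11.1 and 12.8 to 0.812 and 0.826 TPM and from 0.618 and 0.322 to 1.85 and 2.9 TPM, a difference of -4.02 (SE 0.29, adjusted p = 0.000118). Its untreated levels were far apart in the lines, and auxin carried each line toward the untreated level of the other. The keratins Krt8 and Krt18, the paired filaments of simple epithelia, were among the most abundant members: Krt8 went from 1000 and 1038 to 335 and 344 TPM and from 1054 and 1036 to 1556 and 1659 TPM. Krt18 went from 862 and 927 to 360.4 and 384 TPM and from 1086 and 999.7 to 1636 and 1792 TPM, and the differences were -2.20 (SE 0.068, adjusted p = 4.78e-06) and -1.98 (SE 0.096, adjusted p = 2.21e-05). Both keratins have processed copies in the genome, and how such reads were counted is not given in the sources used here. Asb4, an ankyrin-repeat protein of vessel and placental precursors, went from 25.6 and 29.1 to 2.15 and 2.01 TPM and from 6.86 and 8.61 to 12 and 11.3 TPM, a difference of -3.74 (SE 0.20, adjusted p = 3.61e-05).

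Dlk1, an imprinted inhibitor of NOTCH signalling made by mesodermal and placental cells (chr12:109452823-109463336, plus strand), belongs to the class only narrowly. It went from 54.1 and 47.2 to 2.73 and 2.88 TPM in AID-JARID2, and from 133 and 126 to 178 and 156 TPM in SUZ12-AID. The groups did not overlap in either line, which the naming rule required. The difference was -4.12 (SE 0.14, adjusted p = 5.5e-06), but the rise in SUZ12-AID (0.36, adjusted p = 0.0439) did not pass when any 1 of the 8 libraries was left out. That of Asb4 passed in 1 of 8 such fits (adjusted p up to 0.135), and that of Gjb2 failed only without auxin-treated SUZ12-AID replicate 2 (adjusted p = 0.0517). For these genes the fall in AID-JARID2 and the difference passed in all 8 such fits.

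Of the 218 genes, 37 kept the class in all 19 alternative fits that changed the pseudocount, filter, scaling, variance model or libraries. Beside Hand2, Dkk1, Myl4, Gfra3, Six2, Krt8 and Krt18 these included the cell-cycle inhibitor Cdkn1c and 5 genes singled out after their values were seen. They are the mesenchymal factor Twist1, the trophoblast and lymphoid factor Gata3, the BMP ligand Bmp6, the BMP antagonist Nog and the WNT enhancer Rspo3. Nog went from 19.13 and 18.8 to 10.2 and 9.85 TPM in AID-JARID2 and from 16.7 and 18.3 to 27.9 and 27.2 TPM in SUZ12-AID. Rspo3 went from 58 and 60.9 to 23.4 and 20.1 TPM and from 16.1 and 13.3 to 25 and 30.1 TPM. Bmp6 went from 10.5 and 10.4 to 2.19 and 2.85 TPM and from 6.54 and 7.59 to 16.7 and 19.8 TPM, so the list held both a ligand and an antagonist of BMP signalling. Cdkn1c went from 103 and 87.2 to 27.1 and 25.5 TPM and from 141 and 124 to 213 and 206 TPM, Twist1 went from 44.4 and 40.3 to 23.9 and 24.4 TPM and from 38 and 33.9 to 68.5 and 60.4 TPM, and Gata3 from 11.1 and 10.9 to 3.44 and 4.26 TPM and from 9.04 and 7.67 to 20.3 and 19.7 TPM. In Nog, Cdkn1c, Twist1 and Gata3 each auxin group lay outside the range of all 4 untreated libraries.

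The size of the class changed with the library left out, in fits that keep only 1 library in that group. It held 69 genes without auxin-treated SUZ12-AID replicate 2, 89 to 100 without any 1 AID-JARID2 library, 145 without auxin-treated SUZ12-AID replicate 1, and 319 without untreated SUZ12-AID replicate 2. It held 130 genes with a variance weight per line and 333 when limma voom was run on reads recovered from the TPM values.

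The 47 genes that rose in AID-JARID2 and fell in SUZ12-AID had smaller effects. Apela, a peptide ligand of the apelin receptor made by pluripotent cells and needed for early heart and endoderm formation (chr8:65028417-65037336, minus strand), led them. In AID-JARID2 it went from 19.9 and 18.7 to 154 and 159.6 TPM, and in SUZ12-AID it went from 34.5 and 35.7 to 25.6 and 23.7 TPM, a difference of 3.45 (SE 0.11, adjusted p = 4.78e-06). Syt11, a synaptotagmin that restrains membrane uptake (chr3:88744700-88775164, minus strand), went from 8.94 and 7.7 to 42.2 and 42.3 TPM and from 6.41 and 5.74 to 4.03 and 3.63 TPM in the same order, a difference of 2.77 (SE 0.18, adjusted p = 7.32e-05). In both genes the AID-JARID2 auxin libraries exceeded the other 6 by far, while the SUZ12-AID change was under 1 log2 unit. Coro2b, an actin-binding coronin, changed by like amounts in both lines, going from 15.2 and 13.1 to 23.8 and 22.7 TPM in AID-JARID2 and from 47.8 and 54.6 to 31.6 and 28.9 TPM in SUZ12-AID (effects of 0.68 and -0.74). It is the only gene of those named here that kept this class in all 19 alternative fits.

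The other members named by the rule were Egr1, an early response factor of growth signals, Pald1, a phosphatase-like protein of endothelium, Rbpms2, an RNA-binding protein of smooth muscle and heart, Lfng, a glycosyltransferase of NOTCH signalling, and Tagln, a smooth muscle actin-binding protein. Their differences ran from 1.21 in Tagln to 1.54 in Egr1. Egr1 went from 27.3 and 24.9 to 53.6 and 58.4 TPM in AID-JARID2 and from 63.3 and 74.4 to 52.8 and 46.3 TPM in SUZ12-AID, so that auxin brought the lines to one level. Tagln went from 104 and 99.6 to 185 and 192 TPM and from 61.5 and 60.7 to 51.6 and 45.4 TPM. Rbpms2 went from 278 and 259 to 568 and 582 TPM and from 223 and 223 to 190 and 181 TPM. The falls in SUZ12-AID were the less certain side of this class. In the 8 fits that each left out 1 library, the fall passed 7 times for Apela and Rbpms2, 6 for Egr1, 5 for Tagln, 3 for Syt11, and 1 for Pald1 and Lfng. All but Lfng were lost without auxin-treated SUZ12-AID replicate 2, where Apela had an adjusted p of 0.0501 and Rbpms2 one of 0.105. Egr1 was also lost without untreated SUZ12-AID replicate 2, and Tagln without either auxin-treated AID-JARID2 library. The class held 14 genes without auxin-treated SUZ12-AID replicate 2, 15 to 20 without any 1 AID-JARID2 library, 25 without auxin-treated SUZ12-AID replicate 1 and 152 without untreated SUZ12-AID replicate 1. It held 97 after median-of-ratios scaling and 105 after quantile normalization.

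**Figure D2:**
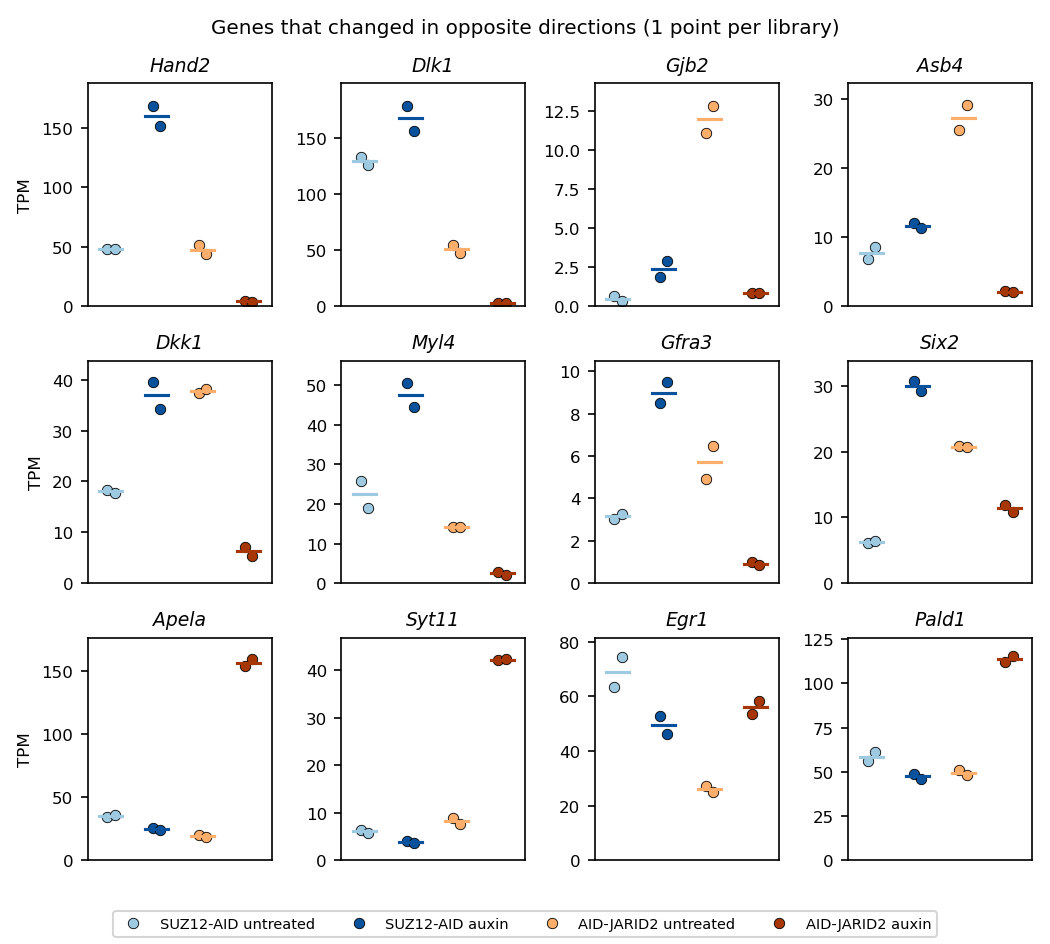
TPM of 12 opposite genes in each of the 8 libraries (points) with the mean of each group of 2 (bars); the y axis starts at 0 and differs by gene. The first 8 fell in AID-JARID2 and rose in SUZ12-AID, as Hand2 did to 4.53 and 3.83 TPM and to 168 and 151 TPM, and the last 4 moved the other way.

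One-line responses made up most of the differences. In 2372 genes (15.5%) the difference passed and exactly 1 line passed: 757 rose (4.94%) and 1088 fell (7.10%) in AID-JARID2 only, and 431 rose (2.81%) and 96 fell (0.626%) in SUZ12-AID only. The median effects were 0.75 and -0.84 for the AID-JARID2 rises and falls, with -0.02 and 0.10 in the other line. For the SUZ12-AID rises and falls they were 0.99 and -0.35, with -0.10 and 0.09 in the other line. In these classes the other line merely missed the threshold, and the test of the difference is what sets the lines apart. Without any 1 AID-JARID2 library the 4 counts, in the order given, were 355 to 433, 631 to 673, 245 to 275 and 40 to 52. Without auxin-treated SUZ12-AID replicate 2 the SUZ12-AID rises and falls numbered 179 and 37, and without untreated SUZ12-AID replicate 1 the falls numbered 255.

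The rises of AID-JARID2 alone were led by Eras, an ESC-specific RAS protein on the X chromosome (chrX:7924276-7928607, minus strand). It went from 2.68 and 2.6 to 58.5 and 64.1 TPM in AID-JARID2 and from 1.13 and 0.575 to 0.954 and 2.09 TPM in SUZ12-AID, a difference of 3.67 (SE 0.34, adjusted p = 0.000345). The 6 other libraries lay at or under 2.68 TPM. Slc7a3, a transporter of cationic amino acids, went from 16.1 and 13.7 to 135 and 125 TPM and, in SUZ12-AID, from a mean of 18.3 TPM (SD 1.13, n = 2) to 20.3 and 22.2 TPM, a difference of 2.84 (SE 0.15, adjusted p = 3.61e-05). All 4 untreated libraries and both SUZ12-AID auxin libraries of Slc7a3 stood between 13.7 and 22.2 TPM. Gng3, a G-protein subunit of neurons, went from 32.3 and 31.5 to 227 and 232 TPM and, in SUZ12-AID, from 13.4 and 10.9 to 9.67 and 11.7 TPM, a difference of 2.98 (SE 0.17, adjusted p = 3.96e-05). Pcsk2, a prohormone protease of neuroendocrine cells, and Btla, an inhibitory receptor of lymphocytes, reached 18.7 and 16.5 TPM and 7.33 and 8.23 TPM and stayed under 1.3 TPM in the other 6 libraries. In 111 of these 757 genes (14.7%) the untreated SUZ12-AID mean was under 1 TPM.

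The falls of AID-JARID2 alone were led by H19, the maternally expressed imprinted RNA of chromosome 7 (chr7:142575529-142578143, minus strand). Its level went from 2506 and 2616 to 159.5 and 125 TPM in AID-JARID2 and from 4706 and 4538 to 4599 and 3996 TPM in SUZ12-AID, a difference of -4.07 (SE 0.16, adjusted p = 9.65e-06). The SUZ12-AID groups overlapped, and the AID-JARID2 auxin libraries were the only ones under 1000 TPM. Tbx2, a T-box repressor of the atrioventricular canal (chr11:85832551-85841948, plus strand), went from 39.1 and 41.8 to 1.45 and 1.24 TPM and, in SUZ12-AID, from 34.8 and 42.9 to 32.8 and 33 TPM, a difference of -3.92 (SE 0.17, adjusted p = 1.21e-05). Pmp22, a membrane protein of mesenchyme and myelin, went from 318 and 316 to 19.7 and 19.3 TPM and, in SUZ12-AID, from 132 and 149.7 to 119.9 and 126 TPM, a difference of -3.77 (SE 0.10, adjusted p = 4.78e-06). The untreated lines stood at like levels of Tbx2 but not of Pmp22. Rubie, a non-coding RNA next to Bmp4, went from 61.7 and 63.3 to 3.79 and 2.5 TPM and, in SUZ12-AID, from 41.3 and 45.2 to 31.8 and 41.4 TPM, and Amer3, a WNT-pathway adaptor, from 30.2 and 34 to 2.04 and 2.17 TPM and, in SUZ12-AID, from 10.5 and 13.3 to 13.7 and 14.2 TPM. Their differences were -3.71 and -3.63. All 5 differences passed in every alternative.

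The rises of SUZ12-AID alone included Nkx2-5, the homeobox factor that marks committed heart progenitors (chr17:26838664-26845009, minus strand). It went from 2.77 and 1.73 to 28.4 and 23.4 TPM in SUZ12-AID and from 1.47 and 1.65 to 1.67 and 1.25 TPM in AID-JARID2, a difference of -3.12 (SE 0.29, adjusted p = 0.000337). Both untreated lines had little of it, and only the SUZ12-AID auxin libraries lay above 3 TPM. Cdkn2a, the locus of the cell-cycle inhibitor p16 and of ARF (chr4:89274471-89294653, minus strand), went from 5.59 and 7.5 to 88.6 and 81 TPM and, in AID-JARID2, from 2.2 and 2.09 to 3.91 and 2.69 TPM, a difference of -3.08 (SE 0.26, adjusted p = 0.00021). Vax2, a homeobox factor of the ventral eye, went from 0.329 and 1.63 to 10.1 and 9.49 TPM and, in AID-JARID2, from 0.312 and 0.175 to 0.144 and 0.248 TPM, a difference of -2.59 (SE 0.42, adjusted p = 0.00455). Rhox6 and Rhox9, X-linked homeobox genes of placenta and germ cells, reached 9.3 and 20.0 TPM and 10.5 and 15.8 TPM with auxin in SUZ12-AID and stayed under 1 TPM in all AID-JARID2 libraries. Both belong to one cluster of related genes, so reads could be split between copies. In 158 of the 431 genes (36.7%) the untreated AID-JARID2 mean was under 1 TPM, and in 16 (3.71%) all 4 AID-JARID2 libraries were listed at 0.

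The falls of SUZ12-AID alone were few and small, with a median of -0.35. The embryonic globins Hbb-bh1 (chr7:103841637-103843164, minus strand) and Hba-x, made by primitive red blood cells, were the largest. Hbb-bh1 went from 41.2 and 27.7 to 0.842 and 0.369 TPM in SUZ12-AID and from 0.947 and 0.354 to 0 and 0 TPM in AID-JARID2. Hba-x had 6.52 and 6.44 TPM in untreated SUZ12-AID and was listed at 0 in the other 6 libraries. Both genes had no room for an equal fall in AID-JARID2, as described below. Pde9a, a phosphodiesterase that degrades cyclic GMP, went from 8.64 and 9.34 to 5.71 and 3.55 TPM and, in AID-JARID2, from 4.94 and 4.47 to 6.72 and 7.29 TPM, and Tmem100, a BMP-induced membrane protein of vessels, from 9.5 and 10.1 to 6.31 and 4.91 TPM and, in AID-JARID2, from 5.14 and 4.5 to 6.63 and 6.59 TPM. Their differences were 1.34 (SE 0.27, adjusted p = 0.0118) and 1.10 (SE 0.21, adjusted p = 0.00932). The fall of Tmem100 did not pass without auxin-treated SUZ12-AID replicate 2 (adjusted p = 0.105), and that of Pde9a did not pass without replicate 2 of either SUZ12-AID group (adjusted p up to 0.103). The difference of Pde9a did not pass without replicate 2 of either AID-JARID2 group (adjusted p up to 0.0561).

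**Figure D3:**
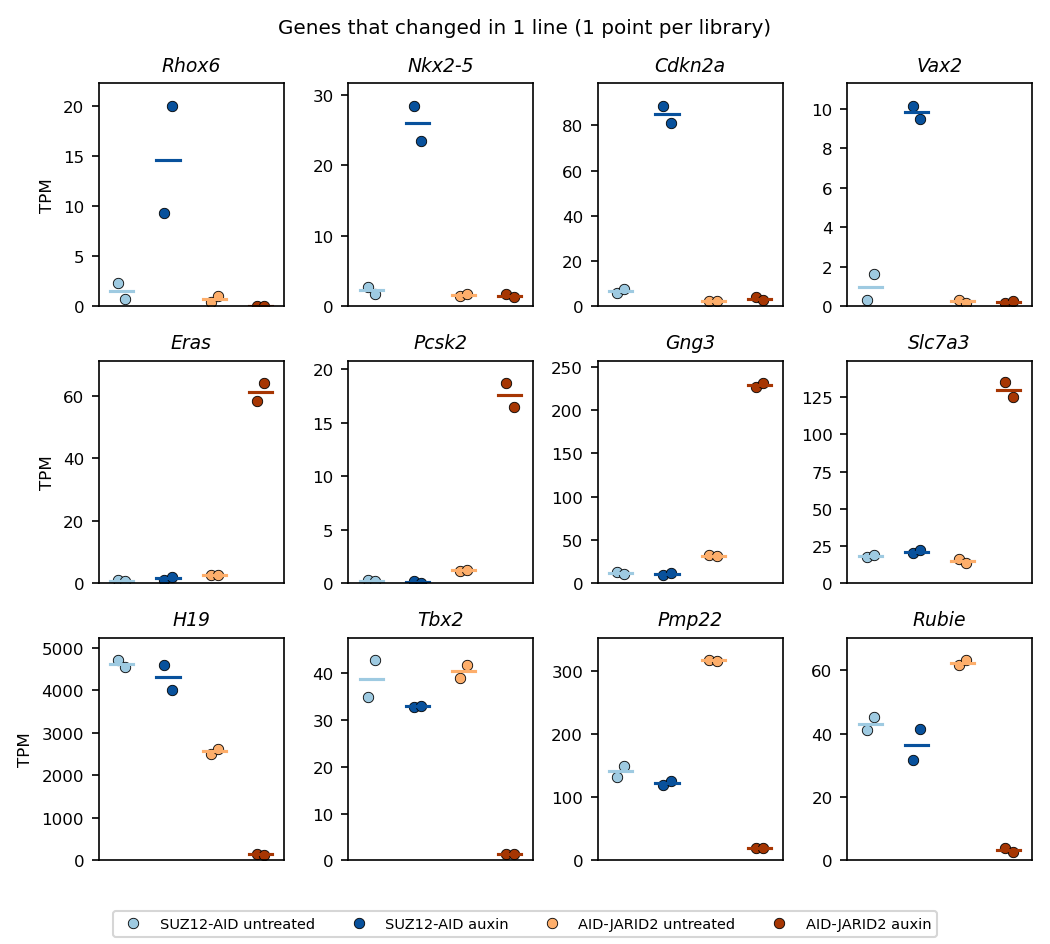
TPM of 12 one-line genes in each of the 8 libraries (points) with group means (bars); the y axis starts at 0 and differs by gene. Rhox6, Nkx2-5, Cdkn2a and Vax2 rose in SUZ12-AID only, the second row rose in AID-JARID2 only and the third row fell in AID-JARID2 only, with H19 at 160 and 125 TPM in the AID-JARID2 auxin libraries.

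Both lines changed in the same direction, but unequally, in 284 genes (1.85%), 197 up (1.29%) and 87 down (0.568%). The rises were larger in AID-JARID2 for the 4 genes that led them, most of which mark pluripotent or epiblast cells. Utf1, a chromatin protein of ESCs (chr7:139943789-139945112, plus strand), went from 31.7 and 29.8 to 816 and 823 TPM in AID-JARID2 and from 36.8 and 32.6 to 78.4 and 96.1 TPM in SUZ12-AID, a difference of 3.39 (SE 0.15, adjusted p = 1.17e-05). Foxd3, a forkhead factor of the epiblast and neural crest, went from 0.974 and 0.637 to 44.3 and 46.9 TPM and from 0.683 and 1.24 to 4.11 and 2.94 TPM. Fgf5, a growth factor of the primed epiblast, went from 4.46 and 3.53 to 83.2 and 87.9 TPM and from 0.485 and 0.556 to 2.6 and 2.25 TPM. Pim2, a serine/threonine kinase, went from 85.5 and 68.8 to 1217 and 1229 TPM and from 23 and 22.8 to 38.6 and 38.8 TPM. In each of the 4 genes and in each line both auxin libraries lay above both untreated ones, as the naming rule required. The median effects over the 197 genes were 1.85 in AID-JARID2 and 0.85 in SUZ12-AID. Their number was 80 to 106 without any 1 AID-JARID2 library and 94 without auxin-treated SUZ12-AID replicate 2.

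The unequal falls were led by Foxf1, a forkhead factor of splanchnic and extraembryonic mesoderm (chr8:121084386-121088144, plus strand). It went from 166 and 174 to 7.1 and 6.42 TPM in AID-JARID2 and from 87.8 and 118 to 53.7 and 54 TPM in SUZ12-AID, a difference of -3.56 (SE 0.18, adjusted p = 2.85e-05). Its divergent neighbour Fendrr, a non-coding RNA of the same mesoderm, went from 29.6 and 29.2 to 1.07 and 0.781 TPM and from 13.6 and 16.6 to 7.16 and 7.52 TPM. The pair thus fell in both lines, further in AID-JARID2. Ackr3, a scavenging chemokine receptor, and Plac1, an X-linked placental protein, had differences of -3.27 and -3.07. Their SUZ12-AID falls (-0.67 and -0.35) passed in only 1 of 8 fits with a library left out, that without untreated SUZ12-AID replicate 1 (adjusted p elsewhere up to 0.23). Hand1, the sister gene of Hand2, was also of this class: it went from 1884 and 1832 to 107 and 90.0 TPM and from 2291 and 2552 to 1077 and 989.8 TPM, with effects of -4.23 and -1.23 and an adjusted p of 1.17e-05 for the difference. Hand1 and Hand2 therefore fell together in AID-JARID2 and moved in opposite directions in SUZ12-AID. The 87 falls became 30 and 46 without auxin-treated SUZ12-AID replicates 2 and 1, 51 to 60 without an AID-JARID2 library and 143 without untreated SUZ12-AID replicate 1.

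Concordant responses, in which both lines passed with the same sign and the difference did not pass, were found in 782 genes (5.10%), 659 rising (4.30%) and 123 falling (0.802%). A difference that misses the threshold does not show equal effects. The counts fell to 287 and 32 without auxin-treated SUZ12-AID replicate 2 and to between 419 and 443 and between 62 and 70 without any 1 AID-JARID2 library. The falls numbered 80 without auxin-treated SUZ12-AID replicate 1 and 258 without untreated replicate 1. Plaur, the urokinase receptor (chr7:24462484-24475968, plus strand), went from 1.69 and 2.39 to 11.1 and 17 TPM in AID-JARID2 and from 10.9 and 9.58 to 50.5 and 52 TPM in SUZ12-AID, with effects of 2.29 and 2.22 and a difference of 0.07 (SE 0.28, adjusted p = 0.893). Robo4, a guidance receptor of endothelium, went from 1.05 and 0.752 to 5.17 and 6.77 TPM and from 0.672 and 1.23 to 7.29 and 6.05 TPM. Cd34, a sialomucin of endothelial and blood progenitors, went from 0.735 and 0.577 to 5.08 and 5.13 TPM and from 3.04 and 4.55 to 20.3 and 21.4 TPM. Sema3e, a vascular guidance ligand, had effects of 2.30 and 1.78, and Anxa1, a phospholipid-binding protein, of 1.83 and 2.69. Plaur and Anxa1 rose from levels that were lower in both untreated AID-JARID2 libraries than in both untreated SUZ12-AID ones.

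The concordant falls were led by Hoxb6, a trunk Hox factor (chr11:96292476-96301569, plus strand), which went from 5.44 and 5.59 to 0.104 and 0.45 TPM in AID-JARID2 and from 15.9 and 18.1 to 4.34 and 3.05 TPM in SUZ12-AID. Cldn11, a tight-junction protein, had effects of -2.59 and -1.93, and Irx3, an Iroquois homeobox factor of neural tube and heart, of -1.08 and -1.30. Their differences were -0.66 (SE 0.23, adjusted p = 0.0873) and 0.22 (SE 0.22, adjusted p = 0.533). Cmklr1, the chemerin receptor, had effects of -1.73 and -0.93. Its fall in SUZ12-AID did not pass without replicate 2 of either SUZ12-AID group (adjusted p up to 0.129). Hist1h2ag, a replication-dependent histone whose RNA largely lacks a poly(A) tail, was listed at 0 in both AID-JARID2 auxin libraries. Its fall passed in 5 of 8 fits with a library left out in AID-JARID2 and in 1 of 8 in SUZ12-AID.

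A low level before auxin left some genes no room for a fall as large as that in the other line. Room was taken as the untreated mean of log2(TPM + 1), since that value cannot go under 0. Of 1172 genes that fell in AID-JARID2 only, or further there, 42 (3.58%) stood lower in untreated SUZ12-AID than the size of the AID-JARID2 fall, and 35 (2.99%) had an untreated SUZ12-AID mean under 1 TPM. Of 99 genes that fell in SUZ12-AID only or further, 13 (13.1%) had less room in AID-JARID2 than the size of the fall and 11 (11.1%) had an untreated mean under 1 TPM there. The first count was 10 with a pseudocount of 0.1, which widens the scale at low levels, and 76 with a pseudocount of 5. With voom the counts were 141 and 3, but the fall was then measured on the voom scale and the room on log2(TPM + 1). Those voom counts therefore do not measure room as defined here.

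Cdx4, a caudal-type factor upstream of the Hox genes (chrX:103321398-103330592, plus strand), led the genes without room for an equal fall in SUZ12-AID. It went from 22.4 and 26.2 to 0.89 and 0.383 TPM in AID-JARID2 and from 3.3 and 4.95 to 0.751 and 0.847 TPM in SUZ12-AID, so both lines ended under 1 TPM from different heights. Tlx2, a homeobox factor of BMP-responsive mesoderm and enteric neurons, went from 9.94 and 7.22 to 1.36 and 1.92 TPM in AID-JARID2 and stood under 1 TPM in all 4 SUZ12-AID libraries. Its difference of -1.71 (SE 0.37, adjusted p = 0.0147) did not pass without replicate 1 of either AID-JARID2 group (adjusted p up to 0.063), with a pseudocount of 0.1 or with voom. Tmem114, a claudin-like membrane protein, went from 12.2 and 8.29 to 1.77 and 2.61 TPM in AID-JARID2. In SUZ12-AID it went from 0.768 and 0.991 to 1.34 and 1.76 TPM, so it did not move down from its low level. In the other direction, Hba-x was listed at 0 in all 4 AID-JARID2 libraries, as were 7 of the 96 genes that fell in SUZ12-AID only. Hbb-bh1 had 0.947 and 0.354 TPM in untreated AID-JARID2 and 0 with auxin. The globin differences thus set a line that had these transcripts beside one that had few or none, and that of Hbb-bh1 did not pass with voom.

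Rises have no such limit on this scale, but a gene may already stand high. Of 923 rises in AID-JARID2 only or further, the untreated SUZ12-AID mean was already at or above the AID-JARID2 auxin mean in 14 (1.52%). Of 462 rises in SUZ12-AID only or further, the untreated AID-JARID2 mean was already at or above the SUZ12-AID auxin mean in 32 (6.93%).

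**Figure D4:**
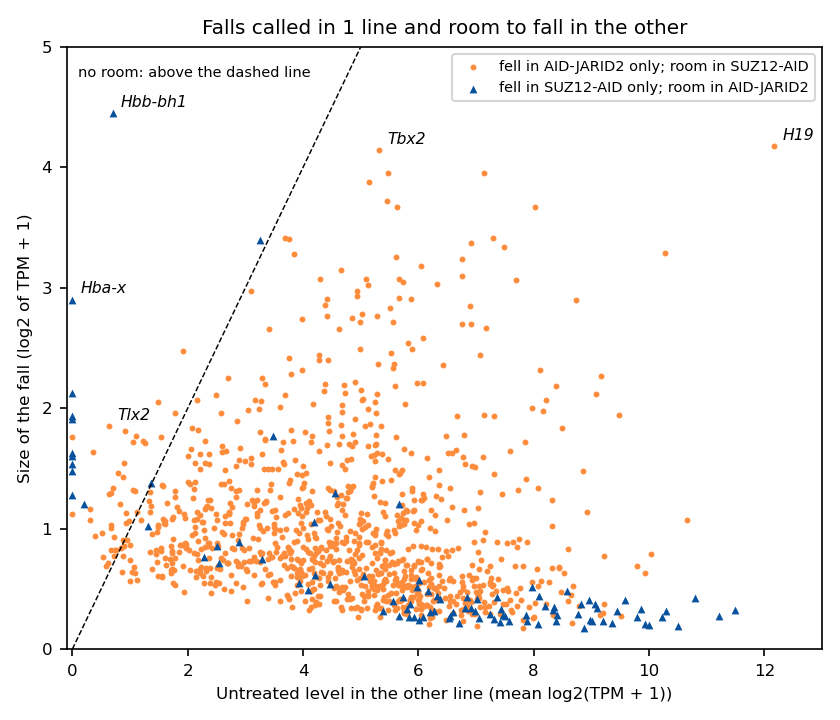
Falls that passed in 1 line only, by their size on log2(TPM + 1) (y axis) and by the untreated level of the gene in the other line (x axis), for AID-JARID2 falls (circles) and SUZ12-AID falls (triangles). Genes above the dashed line had no room for an equal fall, among them Hbb-bh1, Hba-x and Tlx2, whereas H19 and Tbx2 lie far to the right.

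The response was then followed through lists of genes grouped by role. Over all genes tested the median difference was -0.07, 20.0% passed, and the difference was higher in 7.22% and lower in 12.7%. The lists were chosen with earlier results of these data known, and their counts are descriptions. Some genes belong to several lists, so the lists are not independent of each other. Of 23 cardiac progenitor factors tested, the difference was lower in 20 and higher in 1, with a median of -2.20. In AID-JARID2 18 fell and 2 rose, and in SUZ12-AID 7 rose and 3 fell. Beside Hand2, Tbx2 and Nkx2-5, Tbx3, a T-box factor of the conduction system, went from 135 and 136 to 14.4 and 12.2 TPM in AID-JARID2 and from 39.8 and 58.4 to 55.6 and 59.2 TPM in SUZ12-AID. Bmp5, a BMP ligand of the heart field, went from 38.2 and 42.3 to 3.8 and 3.99 TPM and from 44.2 and 55.7 to 60.1 and 69.4 TPM. Gata4, a zinc-finger factor of heart and endoderm, went from 89.3 and 88.1 to 29.2 and 23.1 TPM and from 57.9 and 68.9 to 83 and 92.1 TPM. The rise of Gata4 in SUZ12-AID passed in 3 of 8 fits with a library left out (adjusted p up to 0.238), its fall in AID-JARID2 in all 8. Hopx, a homeodomain-only protein, was the 1 gene with a higher difference, 0.70, and rose in both lines, from 2.93 and 2.57 to 19.9 and 20.1 TPM in AID-JARID2 and from 2.15 and 2.36 to 10.4 and 9.99 TPM in SUZ12-AID. That difference was lost in 6 of 8 fits with a library left out (adjusted p up to 0.125).

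Of 18 contractile genes, 8 had a lower and 2 a higher difference, with a median of -0.56. Tnnt2, cardiac troponin T, went from 22 and 17.2 to 2.72 and 2.81 TPM in AID-JARID2 and from 146 and 122 to 226 and 166 TPM in SUZ12-AID, a difference of -2.98 (SE 0.24, adjusted p = 0.000181). Tnni1, the slow troponin I of embryonic heart, went from 28.8 and 26.6 to 3.4 and 3.64 TPM and, in SUZ12-AID, from 149.9 and 138 to 156 and 127 TPM. Both were already several-fold lower in untreated AID-JARID2 than in untreated SUZ12-AID. The higher differences belonged to Cnn1 and Tagln, actin-binding proteins of smooth muscle, at 1.49 and 1.21. Of 20 genes of lateral plate and extraembryonic mesoderm, 17 had a lower difference and 0 a higher one, with a median of -2.51. In AID-JARID2 17 of these fell and 0 rose, and in SUZ12-AID 6 fell and 3 rose. Of 21 collagen and matrix genes 10 had a lower and 0 a higher difference, among them Col1a1, which went from 51.1 and 54.3 to 2.99 and 3.14 TPM and, in SUZ12-AID, from 39.5 and 46.5 to 34.8 and 37.7 TPM.

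Differences of epiblast genes went the other way, and those of pluripotency genes went both ways. Of 14 formative and primed epiblast genes, 9 had a higher difference and 0 a lower one, with a median of 1.07. In AID-JARID2 13 rose, and in SUZ12-AID 10 rose. Pou3f1, a POU factor of the epiblast and neural plate, went from 21.2 and 19.9 to 162 and 178 TPM in AID-JARID2 and from 43.8 and 38.2 to 64.7 and 59.9 TPM in SUZ12-AID. Of 21 core and naive pluripotency genes 8 had a higher and 5 a lower difference, with a median of 0.28. Most of this list rose in both lines: 16 rose and 3 fell in AID-JARID2, and 14 rose and 1 fell in SUZ12-AID. The median effects were 1.08 and 1.04. Sox2 went from 4.45 and 5.69 to 98.1 and 99.4 TPM and from 2.63 and 3.64 to 8.26 and 9.31 TPM. Pou5f1 went from 335 and 316 to 1600 and 1601 TPM and from 113 and 90.5 to 127 and 154 TPM, so that the AID-JARID2 auxin libraries were the highest of all 8 in both. Nanog went from 32.9 and 34.6 to 81.8 and 76.6 TPM and from 4.43 and 6.14 to 4.84 and 4.68 TPM. Zfp42 and Esrrb, markers of the naive state, had at most 3.56 and 1.23 TPM in any of the 8 libraries.

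The lower differences of that list did not share one pattern. Klf4 was opposite, going from 10.3 and 12 to 2.16 and 2.96 TPM in AID-JARID2 and from 8.07 and 10.3 to 16 and 21.2 TPM in SUZ12-AID, and its rise in SUZ12-AID was lost without auxin-treated replicate 2 or untreated replicate 1 (adjusted p up to 0.117). Tbx3 fell in AID-JARID2 only. Dppa5a rose in both lines and more in SUZ12-AID, going from 3.6 and 4.04 to 5.82 and 8.81 TPM in AID-JARID2 and from 6.74 and 7.49 to 29.1 and 39.3 TPM in SUZ12-AID. Its AID-JARID2 rise and its difference each passed in 5 of 8 fits with a library left out, and the difference did not pass with voom. Of 13 neural genes tested, 4 had a higher and 3 a lower difference. Nes and Tubb3, filament and tubulin genes of neural precursors and neurons, rose in both lines and further in AID-JARID2. Nes went from 55.5 and 55.7 to 217 and 225 TPM and from 27.9 and 28 to 38.1 and 38.9 TPM. Tubb3 went from 14.2 and 11.9 to 74.2 and 80.9 TPM and from 6.9 and 6.74 to 14.5 and 13.7 TPM. Of 19 primitive streak and NODAL genes, 3 had a higher and 3 a lower difference. Nodal, the ligand of that pathway, went from 22.4 and 18.4 to 96.5 and 91.2 TPM in AID-JARID2 and from 4.32 and 3.1 to 6.13 and 7.31 TPM in SUZ12-AID. Foxh1, a DNA-binding partner of the SMADs that NODAL activates, moved the other way, from 361 and 343 to 176 and 169.5 TPM in AID-JARID2 and from 322 and 316 to 305 and 281 TPM in SUZ12-AID. Ligand and partner factor thus differed in opposite directions within this list.

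Of 22 endothelial genes, the difference was lower in 14 and higher in 0, with a median of -0.95. In SUZ12-AID 16 rose and 1 fell, and in AID-JARID2 6 rose and 4 fell. The gene that fell in SUZ12-AID was Pecam1, which fell in both lines and further in AID-JARID2. Cdh5, the cadherin of endothelial junctions, went from 4.95 and 8.31 to 18.8 and 23.1 TPM in SUZ12-AID and from 1.24 and 0.641 to 0.439 and 0.302 TPM in AID-JARID2, and its rise was lost only without auxin-treated SUZ12-AID replicate 2 (adjusted p = 0.0564). Cldn5, a claudin of the same junctions, went from 2.48 and 1.53 to 20.8 and 14.9 TPM and from 0.136 and 0.152 to 0.501 and 0.647 TPM, but its difference did not pass with voom. Kdr, a VEGF receptor of mesodermal and endothelial progenitors, fell in AID-JARID2 only: it went from 127 and 127 to 19.2 and 15 TPM in AID-JARID2 and from 36.7 and 53.9 to 61.6 and 67.2 TPM in SUZ12-AID, a difference of -3.35 (SE 0.25, adjusted p = 0.000123). Flt1, Flt4, Esam, Robo4 and Cd34 were concordant rises. Of 16 blood genes 5 had a higher and 4 a lower difference, and in SUZ12-AID 7 fell and 2 rose. Myb, a factor of definitive blood progenitors, rose in AID-JARID2 only, going from 0.969 and 0.572 to 8.37 and 9.22 TPM there and from 1.18 and 0.984 to 1.68 and 1.73 TPM in SUZ12-AID.

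Trophoblast and placental genes had lower differences in 11 of 15 and higher ones in 0, with a median of -2.28. In AID-JARID2 6 fell and 3 rose, and in SUZ12-AID 10 rose and 3 fell. Esx1, an X-linked homeobox gene of the placenta, had the largest rise there among the genes named: it went from 0.454 and 0.347 to 22.3 and 25.8 TPM in SUZ12-AID and from 0.216 and 0.846 to 2.78 and 2.22 TPM in AID-JARID2, a difference of -2.94 (SE 0.32, adjusted p = 0.000696). Among 17 surface ectoderm and epithelial genes 6 had a higher and 4 a lower difference, and 15 rose in SUZ12-AID and 11 in AID-JARID2. Cdh1, the epithelial cadherin, went from 62.2 and 54.8 to 393 and 417 TPM and from 34.8 and 36.7 to 56.9 and 82.7 TPM, so it rose further in AID-JARID2, where Krt8 and Krt18 fell. Krt7 went from 4.26 and 2.34 to 31.5 and 37.3 TPM in SUZ12-AID and from 0.243 and 0.136 to 1.34 and 1.64 TPM in AID-JARID2, and its difference of -2.01 did not pass with a pseudocount of 0.1 or with voom. Of 12 germline genes 3 had a lower difference and 9 rose in SUZ12-AID. Of 10 endoderm genes 6 had a lower and 2 a higher difference. Cxcr4, a chemokine receptor of early endoderm and mesoderm, went from 93.3 and 94.5 to 10.2 and 9.31 TPM in AID-JARID2 and from 21.4 and 27.6 to 16.1 and 21.5 TPM in SUZ12-AID.

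Hox genes are long-known targets of PRC2. Of 23 Hox and Cdx genes 16 had a lower difference and 0 a higher one, with a median of -1.52. In AID-JARID2 17 fell and 0 rose, and in SUZ12-AID 6 fell and 3 rose. Hoxb2, an anterior Hox gene, went from 75.9 and 75.7 to 8.31 and 6.57 TPM and from 57.7 and 64.8 to 42.4 and 39.6 TPM. Hoxd9, a posterior one, went from 15.6 and 12.8 to 0.507 and 0.364 TPM and from 11.9 and 13.3 to 9.38 and 10.7 TPM. Hoxd1, an anterior Hox gene, had a difference of -2.80. Of 28 other homeobox and paired-box factors 16 had a lower difference and 0 a higher one, with 13 falls and 5 rises in AID-JARID2 and 11 rises and 3 falls in SUZ12-AID. Six2 was among those with opposite responses. Of 9 T-box genes 6 had a lower difference, among them Tbx15, which went from 0.615 and 0.539 to 16.8 and 17.5 TPM in SUZ12-AID and from 1.14 and 0.809 to 2.04 and 3.11 TPM in AID-JARID2. Tbx20, a heart factor, went from 30.8 and 34.3 to 3.55 and 2.99 TPM in AID-JARID2 and from 24.1 and 36.4 to 35.1 and 36.8 TPM in SUZ12-AID.

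Of 28 imprinted genes tested 19 had a lower and 2 a higher difference, with a median of -1.25. In AID-JARID2 17 fell and 4 rose, and in SUZ12-AID 8 rose and 1 fell. Igf2, the growth factor gene that neighbours H19 on chromosome 7 (chr7:142650766-142666816, minus strand), went from 694 and 693 to 74.3 and 65.9 TPM in AID-JARID2 and from 1139 and 1341 to 1162 and 1202 TPM in SUZ12-AID, a difference of -3.23 (SE 0.12, adjusted p = 8.16e-06). H19 and Igf2 are normally read from opposite parental alleles, and both fell in AID-JARID2 and did not pass in SUZ12-AID. Phlda2, a placental growth inhibitor farther along the same chromosome, went from 1280 and 1310 to 193 and 154 TPM and from 410 and 435 to 508 and 538 TPM. Dlk1, Cdkn1c, Slc22a18, Grb10 and Ndn were opposite. The 2 with a higher difference were Magel2 and Nnat at 0.76 and 0.72, and these passed in 2 and 3 of 8 fits with a library left out.

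The genes of the Polycomb complexes were read for the lines themselves. Jarid2 RNA, which the tag leaves in place because the degron acts on the protein, went from 45.3 and 43.5 to 104 and 113 TPM in AID-JARID2 and from 26 and 34.3 to 32.7 and 38.3 TPM in SUZ12-AID, a difference of 1.03 (SE 0.19, adjusted p = 0.00775). Suz12 RNA went from 113 and 127 to 106 and 109 TPM in SUZ12-AID and from 64.6 and 69.9 to 77.3 and 83.5 TPM in AID-JARID2, and its difference of 0.41 (SE 0.11, adjusted p = 0.0404) was lost in 7 of 8 fits with a library left out. Mtf2 did not pass in either line. These RNA levels do not check the loss of the proteins. Of 13 PRC2 subunits tested 2 had a higher difference, Jarid2 and Suz12, and 3 a lower one. Phf1 and Ezh1 were opposite, and Phf19 rose in SUZ12-AID only, going from 2.24 and 1.89 to 5.42 and 7.37 TPM there and from 3 and 2.13 to 2.26 and 1.94 TPM in AID-JARID2. Phf1 went from 21.1 and 19.8 to 12.3 and 12.5 TPM and from 23.6 and 25.9 to 32.1 and 33.1 TPM, and its rise in SUZ12-AID passed in 1 of 8 fits with a library left out (adjusted p up to 0.156), as did that of Ezh1 (up to 0.281).

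Of 21 PRC1 subunits, parts of the complex that ubiquitinates histone H2A, 5 had a higher and 6 a lower difference. The higher differences of L3mbtl2, Cbx6 and Pcgf6 were lost in 9, 7 and 6 alternatives, mostly fits with a library left out, and those of Phc1 and Cbx7 in 0. Bmi1 and Pcgf5 were among those with opposite responses. Bmi1 went from 5.13 and 5.2 to 3.21 and 2.76 TPM in AID-JARID2 and from 6.51 and 6.79 to 21.6 and 20.6 TPM in SUZ12-AID, a difference of -2.16 (SE 0.18, adjusted p = 0.00021), and its fall failed only without auxin-treated AID-JARID2 replicate 2 (adjusted p = 0.063). Phc1 and Cbx7, subunits of canonical PRC1 that are abundant in ESCs, rose in AID-JARID2 only. Phc1 went from 110 and 110 to 324 and 329 TPM and, in SUZ12-AID, from 98.5 and 123 to 108 and 114 TPM, and Cbx7 from 13.7 and 12.9 to 42.7 and 44 TPM and, in SUZ12-AID, from 14.8 and 14.5 to 16.1 and 21.3 TPM.

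Cell-cycle inhibitors and D cyclins had a lower difference in 9 of 16 and a higher one in 0, with 11 rises in SUZ12-AID against 4 rises and 4 falls in AID-JARID2. Beside Cdkn2a, its neighbour Cdkn2b went from 5.24 and 5.11 to 21.6 and 29.6 TPM in SUZ12-AID and from 0 and 0.155 to 1.15 and 0.767 TPM in AID-JARID2. The difference of Cdkn2b was -1.23, but 0.436 with a pseudocount of 0.1 and 0.721 with voom, and it did not pass without replicate 2 of either AID-JARID2 group or of auxin-treated SUZ12-AID (adjusted p up to 0.0771). Replication and mitosis genes had a higher difference in 5 of 28 and a lower one in 0, with 14 falls in SUZ12-AID and 7 in AID-JARID2. The differences of Mcm2 and Mcm3 were lost in 10 and 6 alternatives, mostly fits with a library left out, and that of Ccne1 in 0. Ccne1, a G1 cyclin, went from 123 and 127 to 224 and 229.5 TPM in AID-JARID2 and from 87.5 and 88.8 to 82.5 and 76 TPM in SUZ12-AID. Of 19 p53 targets 11 were concordant rises, and 4 had a higher and 1 a lower difference. The higher differences of Aen and Sesn2 were lost in 7 and 6 alternatives, mostly fits with a library left out, and that of Perp only with a 2-fold minimum. Of 22 stress and heat shock genes 10 had a higher and 2 a lower difference, among them Chac1, a glutathione-degrading enzyme of the stress response, which went from 3.93 and 3.58 to 15.2 and 18.5 TPM in AID-JARID2 and from 12.1 and 14.7 to 13.2 and 12.5 TPM in SUZ12-AID. Perp, a desmosomal p53 target, rose further in AID-JARID2, going from 28.3 and 31.7 to 140.1 and 154 TPM there and from 59.1 and 62.2 to 154 and 184 TPM in SUZ12-AID. Of 11 paraxial mesoderm genes 1 had a higher and 4 a lower difference. Of 20 housekeeping genes 3 had a higher and 3 a lower difference, the largest in size being B2m at -0.73.

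Neural genes differed in both directions. Elavl3, an RNA-binding protein of neurons, rose in AID-JARID2 only, going from 0.958 and 0.386 to 10.9 and 10.9 TPM there and from 0.672 and 0.677 to 1.23 and 1.21 TPM in SUZ12-AID. Olig2, a helix-loop-helix factor of motor neuron and oligodendrocyte progenitors, did too, going from 5.37 and 6.02 to 22.1 and 23.4 TPM and from 1.61 and 1.27 to 1.05 and 1.02 TPM. Ncam1, a neural cell adhesion molecule, was opposite with a lower difference, going from 5.88 and 6.45 to 3.78 and 3.46 TPM in AID-JARID2 and from 3.84 and 5.44 to 7.18 and 9.14 TPM in SUZ12-AID. Its fall in AID-JARID2 passed in 4 of 8 fits with a library left out (adjusted p up to 0.157) and its rise in SUZ12-AID in 2 of 8 (up to 0.219). Of 11 neural crest genes 1 had a higher and 6 a lower difference. Snai2, a zinc-finger factor of migrating mesenchyme, went from 34.8 and 37.1 to 2.82 and 3.34 TPM in AID-JARID2 and from 57.7 and 73.5 to 59.7 and 54.1 TPM in SUZ12-AID, a difference of -2.99 (SE 0.19, adjusted p = 6e-05). Msx1, a BMP-responsive homeobox factor, fell in both lines, from 249 and 229.5 to 38.6 and 34.1 TPM and from 228 and 228 to 152 and 136 TPM. Snai2 and Msx1 are also members of the lateral plate list, so sharing the sign of that list adds no support. Their differences were lower, whereas those of Elavl3 and Olig2 were higher. Fn1, fibronectin, went from 1538 and 1616 to 452 and 429 TPM in AID-JARID2 and from 285 and 450.2 to 353 and 466 TPM in SUZ12-AID, so that auxin brought a high AID-JARID2 level near that of the other line. Cldn6, an epithelial claudin in the endoderm list, rose further in AID-JARID2, from 57.8 and 48.6 to 458 and 469 TPM against a smaller rise in SUZ12-AID, from 55.8 and 49.5 to 77.1 and 101 TPM. Its SUZ12-AID rise was lost only without auxin-treated replicate 2 (adjusted p = 0.055). Dsp, the desmosomal plaque protein, fell in AID-JARID2 only, from 85.2 and 94.6 to 39.8 and 41.2 TPM, and went from 42.7 and 64.3 to 61.5 and 80.3 TPM in SUZ12-AID.

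**Figure D5:**
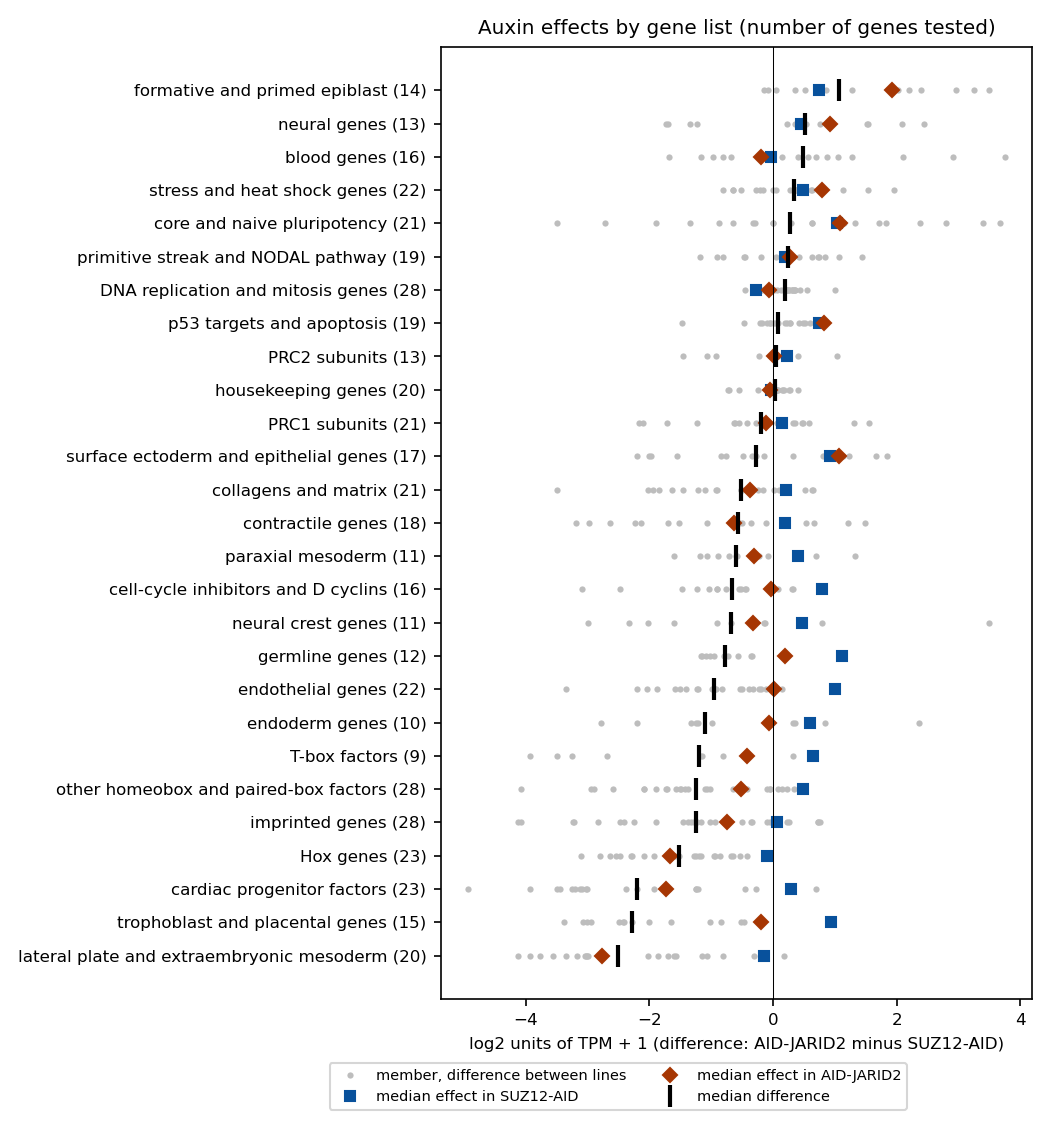
For each of 27 gene lists, the difference of every tested member (grey points), the median difference (black tick) and the median effect in SUZ12-AID (squares) and AID-JARID2 (diamonds), in log2 units of TPM + 1, with the number tested in brackets. Lateral plate mesoderm, trophoblast and cardiac progenitor lists have median differences of -2.51, -2.28 and -2.20, and the formative epiblast list has 1.07.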

How the data were processed

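PolyA-selected, stranded RNA-seq libraries of 8 samples were used: untreated and auxin-treated cells of the SUZ12-AID and the AID-JARID2 line, 2 libraries each. Groups and replicates follow the submitters' labels. The values are TPM, as deposited by the authors in 1 table of 35856 genes. STAR 2.6.1d and mm10 are named in the submitters' processing notes; which program and gene models produced the table is not given in the sources used here. Reads were recovered as the smallest whole numbers that fitted all values of a gene within 0.001 reads. All 240300 values above 0 could be written so, which is no check for genes above 0 in 1 or few libraries. A factor shared by all values of a gene is lost, so the totals of 11008495 to 17173072 reads per library are lower limits.

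The 15329 genes that reached 1 TPM in 2 or more of the 8 libraries were kept. limma 3.58.1 in R 4.3.3 was fitted to log2(TPM + 1) with 1 mean per group and a variance trend (4 residual and 3.9 prior degrees of freedom). The difference, the 2 auxin effects and the untreated difference between lines were each adjusted over all kept genes by Benjamini-Hochberg at 0.05. A fold on this scale understates the change of low genes. A gene was opposite, one-line, unequal or concordant by the calls in each line and the call of the difference. Members and gene lists were chosen with earlier results of these data known. Named genes reached a group mean of 5 TPM and had the largest differences of their class, or led or went against their list. In each line that passed, both auxin libraries of such a gene also had to lie on 1 side of both untreated ones. Gene positions are from GENCODE vM21 on mm10, matched by symbol for 26679 genes, and promoter windows are from RefSeq on GRCm38.p6. The fit was tested on simulated data. Alternatives changed the pseudocount, filter, scaling, variance model, fold, number of libraries and replicate block, left out each library, or ran limma voom on the recovered reads. The 4 libraries of the MTF2 line entered only 1 alternative. Some genes are not reported here.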

Additional observations from a re-analysis of the deposited data

Results flagged for a closer look

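The 265 genes whose auxin effects passed with opposite signs were marked because 2 lines under the same treatment went opposite ways, and the difference itself passed the limma test in each. Of these, 218 fell in AID-JARID2 and rose in SUZ12-AID, and 47 rose in AID-JARID2 and fell in SUZ12-AID. With 2 libraries per group no single library could be tested as an outlier. The smaller number was 14 without auxin-treated SUZ12-AID replicate 2, 15 to 20 without any 1 AID-JARID2 library and 152 without untreated SUZ12-AID replicate 1.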

How the results depend on the processing

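Calls were more sensitive to the libraries used than to the pseudocount. Of 144 named genes past the test of the difference, 101 passed in the same direction under every alternative run, 43 were lost under at least 1, and 1 reversed: Cdkn2b had a difference of 0.436 with a pseudocount of 0.1 and 0.721 with voom. With a 2-fold minimum, higher and lower differences numbered 397 and 1059, AID-JARID2 rises and falls 894 and 635, SUZ12-AID rises and falls 670 and 41, and untreated differences 442 and 483. For opposite, one-line and unequal genes the minimum applied to the difference between the lines, not to the effect in a line. Concordant genes had to reach it in both lines. The classes then held 14 opposite genes with AID-JARID2 up, and 266 and 536 rises and falls of AID-JARID2 only. They held 250 and 20 rises and falls of SUZ12-AID only, 105 and 54 unequal, and 148 and 6 concordant. Quantile normalization gave 1680 higher differences, 955 SUZ12-AID falls, 105 opposite with AID-JARID2 up, 182 falls of SUZ12-AID only and 260 concordant falls. Median-of-ratios scaling gave 962, 97, 187 and 254 for the last 4 of these, and 140 unequal falls. A variance weight per line gave 994 and 179 SUZ12-AID rises and falls, 130 and 23 opposite genes (AID-JARID2 down and up), 226 and 38 rises and falls of SUZ12-AID only, 45 unequal falls, and 437 and 61 concordant. voom gave 333 opposite with AID-JARID2 down and 61 falls of SUZ12-AID only. All 12 libraries gave 90 opposite with AID-JARID2 up. Without a filter there were 141 opposite with AID-JARID2 down, 127 unequal rises and 77 concordant falls. Rises of SUZ12-AID only numbered 278 with a filter of 5 TPM and 280 with a pseudocount of 0.1. Falls of AID-JARID2 without room in SUZ12-AID numbered 11 with a filter of 5 TPM, 64 with none, and 10 and 76 with pseudocounts of 0.1 and 5. Falls of SUZ12-AID without room in AID-JARID2 numbered 3 with a filter of 5 TPM and 29 with none. With voom these counts were 141 and 3, but fall and room were then on different scales, so they do not measure room.

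Leaving out 1 library at a time gave 519 to 1776 higher and 1118 to 2451 lower differences, 1495 to 3269 and 1331 to 2821 AID-JARID2 rises and falls, 727 to 2174 and 128 to 964 SUZ12-AID rises and falls, and 852 to 3467 and 730 to 1563 untreated differences. The classes ranged from 69 to 319 (opposite, AID-JARID2 down), 14 to 152 (opposite, up), 355 to 1082 and 631 to 1356 (AID-JARID2 only, up and down), 179 to 481 and 37 to 255 (SUZ12-AID only), 80 to 195 and 30 to 143 (unequal), and 287 to 737 and 32 to 258 (concordant). Falls without room ranged from 24 to 48 for AID-JARID2 and from 11 to 17 for SUZ12-AID. Each of these fits keeps only 1 library in a group and has less power, and the cause of these shifts was not tested. The median difference over all genes was -0.07, and it was -0.133 and -0.006 without untreated SUZ12-AID replicates 2 and 1, 0.002 after median-of-ratios scaling and 0.037 after quantile normalization. Whether replicate numbers pair the samples is not stated, and weak correlations of same-numbered deviations (0.009 to 0.102) cannot settle it. A replicate block gave 1319 higher and 2231 lower differences, against 1107 and 1954 without it, and 273 and 70 opposite genes. Depth limits genes near 1 TPM, where few reads stand behind a value.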
